A study of Mus musculus with 6 samples.

Results

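The genes of the proteasome and its activators were compared between mouse glial cells that carried mutant histone H3.3 and the same cells with an empty vector. Members were all genes whose symbol begins with Psm, goes on with 1 of the letters a to g and ends in a number, leaving out the 3 inducible catalytic subunits Psmb8, Psmb9 and Psmb10, whose values are given separately. The pattern holds 45 genes. Of these, 44 had an array probe that could be named through its RefSeq accession, Psme2 being the exception, and 42 were bright enough to be tested, out of 14898 genes tested on the whole array. The 42 tested genes encode 14 subunits of the core particle, 17 of the regulatory particle, 7 assembly chaperones and 4 activators or inhibitors.

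Both groups were OS3 cells, a glial line immortalized with SV40 that was established from the brain of newborn male C3H mice (C3H/HeN in the study's methods). The WT group carried the empty vector, and the IG27 group carried the H3F3A K27M plasmid, which gives a histone H3.3 with methionine in place of lysine at its K27 position. Every dish was grown for 2 days in MEM-α medium with serum, insulin and glucose, and 3 dishes of each group gave 1 array each, so the spread between arrays is a spread between dishes of a single line. The sources used here do not state whether IG27 was 1 clone or several, and a property of the selected line cannot be told apart from an effect of the mutant histone. H3f3a itself does not check the labels, because it is unknown whether its probe reads the plasmid. Its normalized log2 intensity was 6.96, 6.70 and 6.85 in WT and 6.61, 6.52 and 6.61 in IG27, a fall of -0.26 ± 0.08 (SE, n = 3 per group, adjusted p = 0.0237, limma). Of 7 astrocyte markers 6 were well above background on every full array of each group, with Aqp4 only in WT and Slc1a3 only in IG27, and of 7 oligodendrocyte lineage markers 6 were in WT and 7 in IG27. Markers of other cells were also detected, with 4 and 5 of 6 for microglia, 2 and 3 of 5 for neurons, 2 and 3 of 5 for fibroblasts and 1 and 2 of 4 for endothelium in WT and IG27, respectively. Some markers differed widely in level, and those of 1 cell type went in both directions. Among astrocyte markers the log2 fold change was 4.93 for S100b and 2.86 for Aldoc. It was -1.07 for Gfap, -1.03 for Slc1a2 and -1.72 for Aldh1l1. Among neuron markers it was -2.63 for Tubb3. Slc1a3 (astrocytes), Map2 (neurons) and Kdr (endothelium) were well above background on every full array in IG27 but not in WT. The part of such differences in the proteasome values was not tested. An array averages over a whole dish, so fewer cells of a type and less RNA per cell cannot be told apart.

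The proteasome is the protease that degrades proteins tagged with ubiquitin in the cytosol and nucleus. Its barrel-shaped 20S core particle is built from outer rings of alpha subunits, which gate the entrance, and inner rings of beta subunits, of which Psmb5, Psmb6 and Psmb7 are catalytic. The 19S regulatory particle binds the tagged protein, removes the ubiquitin and unfolds the chain with a ring of ATPases, while other activators open the core without ubiquitin. The subunits work as 1 complex in fixed proportions, and the transcription factor Nfe2l1 is known to raise their genes together when proteasome activity is short.

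All values below are log2 intensities relative to the 75th percentile of the same array, so 0 is the level of that percentile, and fold changes are IG27 minus WT on the log2 scale with their standard error. The level of 1 probe cannot be set against that of another. A gene passed when its adjusted p was under 0.05 (limma over all tested genes, Benjamini-Hochberg adjustment, two-sided, n = 3 per group unless stated). The arrays gave 58.8% to 61.2% of probes well above background on the 5 arrays with full scanner output, and their values correlated at 0.994 to 0.997 within a group and 0.902 to 0.905 between groups over all tested genes.

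The proteasome genes did not move as 1 unit. In IG27, 6 of the 42 were higher and 15 lower, and 21 did not pass. Over all tested genes, 70.5% passed, which is 30.5% higher in IG27 and 40.0% lower, against 21 of the 42 proteasome genes. Values of the groups did not overlap for 25 of the 42 (59.5%), against 75.7% of all genes. The fold changes were also small, with a median size of 0.25 against 0.47 for all genes and the same median standard error of 0.07 in both. The sets were not matched in level, with group means of 0.65 to 6.8 for the members and -8.1 to 8.64 for all genes. All genes include those well above background in only 1 group. A size of at least 0.5 was reached by 13 proteasome genes (31.0%) and by 47.7% of all genes, and a size of at least 1 by 1 proteasome gene, Psmb5 (2.38%), and by 23.5% of all genes. The median fold change was -0.06 for the proteasome genes and -0.07 for all genes, and which of the medians was higher changed with the settings given next.

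These counts depend on how the arrays were scaled. With quantile normalization 14 proteasome genes were higher and 14 lower (66.7% passed, against 72.6% of all genes), with a median of 0.05 against -0.05 for all genes. With scaling to each array's median 3 were higher and 25 lower (66.7% passed, against 73.7% of all genes), with a median of -0.30, but there the median of all genes was -0.31 and the share of higher among all genes that passed fell from 43.3% to 27.6%. Without the filter on dim probes, which brings the genes tested to 22911, the order turned, with 47.6% of members passing against 44.6% of all genes and medians of -0.06 and 0.12. Of the 21 members that passed, 16 did so under each of the 18 alternative settings. Of the 21 that did not pass, only 3 stayed so under every setting.

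**Figure D1:**
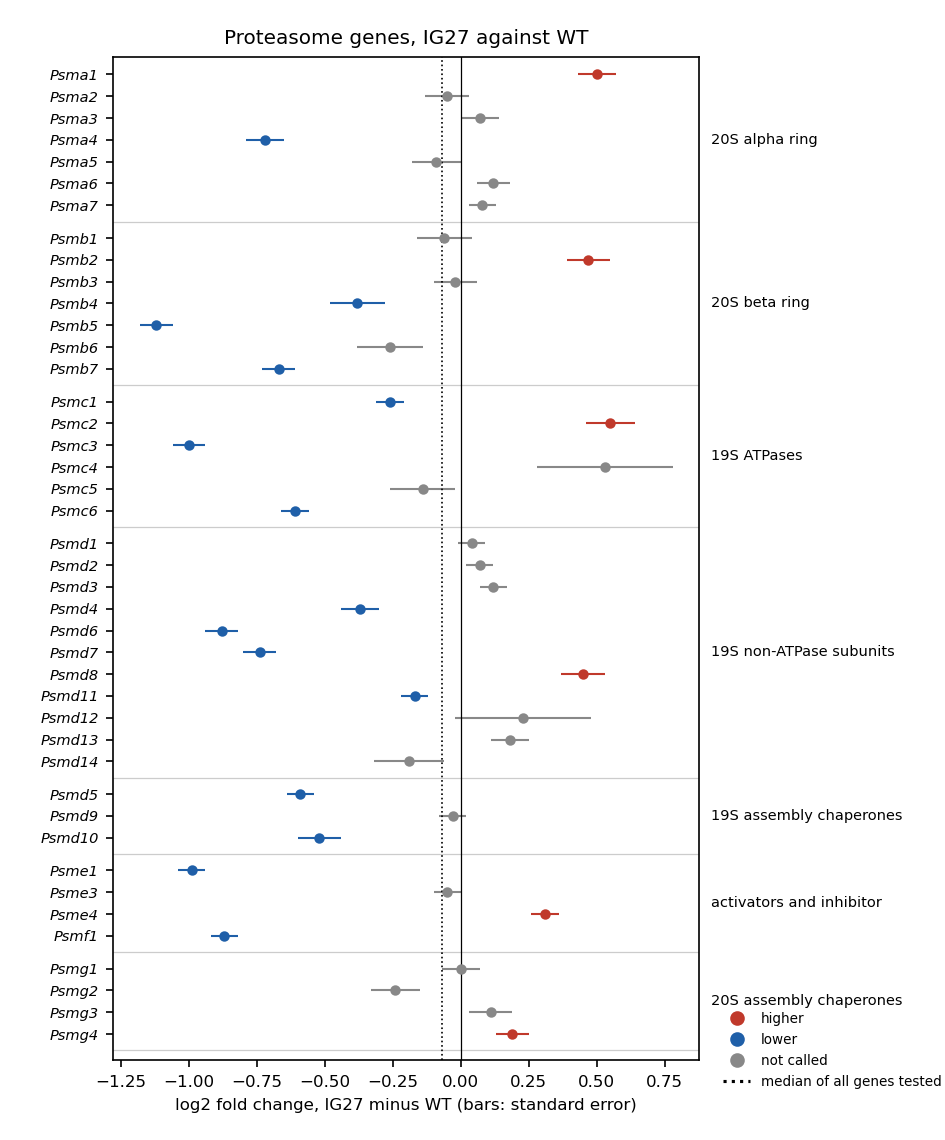
Log2 fold change of each tested proteasome gene, IG27 minus WT (x axis), by class; points are limma estimates, bars are standard errors, and colour gives the result of the test at an adjusted p of 0.05. The dotted line is the median of all tested genes at -0.07; values run from -1.12 (Psmb5) to 0.55 (Psmc2), and every class but the 19S assembly chaperones holds genes on both sides of 0.

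The members with the largest fall and the largest rise are shown with the 250 bases before their transcription start, since a shared element in proteasome promoters is a known route by which these genes are raised together. The sequences are from RefSeq (GRCm38.p6), 5′ to 3′ along the gene's own strand. Capitals mark a match to TGACNNNGC, the core of the antioxidant response element read by Nfe2l1 and Nfe2l2, or to CCAAT, the box read by the factor NF-Y. Psmb5, which fell most, lies on the minus strand at chr14:54617996-54618245 for the bases shown, and its match to TGACNNNGC begins 47 bases before the start. Psmc2, which rose most, is shown at chr5:21785025-21785274 on the plus strand, and its CCAAT begins 28 bases before the start.
Psmb5: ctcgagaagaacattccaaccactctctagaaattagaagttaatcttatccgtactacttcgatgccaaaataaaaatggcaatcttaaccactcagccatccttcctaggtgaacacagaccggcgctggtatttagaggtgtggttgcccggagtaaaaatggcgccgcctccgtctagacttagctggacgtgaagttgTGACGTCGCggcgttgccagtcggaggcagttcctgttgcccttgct
Psmc2: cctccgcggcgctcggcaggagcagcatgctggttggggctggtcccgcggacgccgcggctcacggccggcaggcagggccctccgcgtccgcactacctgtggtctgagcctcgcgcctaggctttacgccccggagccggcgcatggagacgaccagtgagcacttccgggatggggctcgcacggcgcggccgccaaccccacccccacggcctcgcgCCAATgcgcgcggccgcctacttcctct
The gene that fell most and the gene that rose most thus held different elements in these windows. A further start of Psmc2 in the table had none of the 4 motifs searched in its bases before the start.

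In the alpha ring, whose subunits gate the core, 1 of 7 tested genes was higher, 1 lower and 5 did not pass, with a median of 0.07. This count and those of the classes below stand beside 70.5% of all tested genes passing, 30.5% higher and 40.0% lower. Psma1 measured 5.18, 4.99 and 5.02 in WT and 5.60, 5.51 and 5.57 in IG27. All IG27 arrays lay above all WT arrays, a rise of 0.50 ± 0.07 (adjusted p = 0.000737, limma). Psma4 measured 6.01, 5.85 and 6.03 in WT and 5.31, 5.18 and 5.25 in IG27. The groups did not overlap, and the fall of -0.72 ± 0.07 (adjusted p = 0.000154, limma) was seen by all 4 Psma4 probes, from -0.84 to -0.63.

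The remaining alpha subunits stayed within 0.12 of WT. Psma2 measured 6.21, 6.08 and 6.10 in WT and 6.0 and 6.16 in IG27, where its spot on IG27 replicate 1 was an outlier and was left out of the fit. Psma3 measured 5.82, 5.67 and 5.88 in WT and 5.87, 5.81 and 5.90 in IG27. Psma5 measured 5.16, 5.17 and 5.27 in WT and 5.29, 5.03 and 5.00 in IG27. In these 3 genes the groups overlapped, and Psma5 passed only without IG27 replicate 1 (-0.19, adjusted p = 0.0372, limma) or with median scaling. Psma6 measured 5.57, 5.53 and 5.63 in WT and 5.77, 5.63 and 5.70 in IG27. Psma7 measured 5.63, 5.51 and 5.62 in WT and 5.70, 5.65 and 5.65 in IG27. The IG27 values of these last genes sat just above or at the top of the WT values, by 0.12 ± 0.06 for Psma6 (adjusted p = 0.106, limma) and 0.08 ± 0.05 for Psma7 (adjusted p = 0.237, limma). A second, dimmer Psma6 probe passed at 0.23. Psma8, the testis form of an alpha subunit, was not well above background on any of the 5 full arrays, with both probes between -8.09 and -7.12.

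The beta ring, which carries the proteolytic sites, had 1 higher and 3 lower genes among 7, with a median of -0.26. Of the 3 catalytic subunits, Psmb5 cuts after hydrophobic residues, Psmb6 after acidic and Psmb7 after basic ones. Psmb5 measured 5.26, 5.21 and 5.12 in WT and 4.13, 4.03 and 4.07 in IG27. The fall of -1.12 ± 0.06 (adjusted p = 1e-05, limma) put IG27 2.18-fold below WT, and every IG27 array lay below every WT array. Psmb7 measured 4.08, 4.07 and 3.94 in WT and 3.32, 3.38 and 3.35 in IG27. It fell by 0.67 on the log2 scale (SE 0.06, adjusted p = 8.55e-05, limma), again with no overlap. Psmb6 measured 6.51, 6.26 and 6.15 in WT and 6.20, 5.93 and 6.03 in IG27. The groups overlapped, and its difference of -0.26 ± 0.12 did not pass (adjusted p = 0.0909, limma), although its second probe, at -0.24, did.

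**Figure D2:**
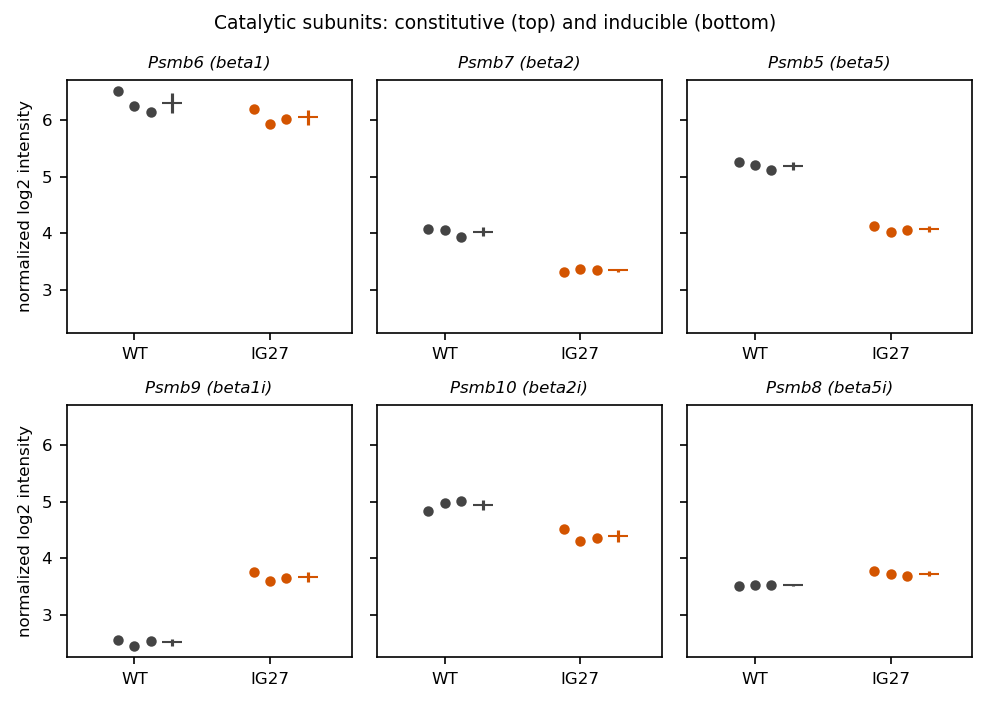
Normalized log2 intensity (y axis) of the 3 constitutive catalytic subunits (top) and their inducible counterparts (bottom) in the 3 WT and 3 IG27 arrays; points are arrays, in the order of their replicate numbers, and the bar beside them is the mean ± SD. Psmb5 and Psmb7 were lower in IG27 without overlap, Psmb9 was higher and Psmb10 lower; levels are not comparable between genes.

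The structural beta subunits differed among themselves. Psmb2 measured 2.42, 2.27 and 2.42 in WT and 2.85, 2.73 and 2.93 in IG27. It rose by 0.47 ± 0.08 (adjusted p = 0.00163, limma), with no overlap and with 0.50 at its second probe, but with median scaling the rise was 0.23 and did not pass (adjusted p = 0.0682, limma). Psmb4 measured 6.52, 6.28 and 6.40 in WT and 6.18, 5.96 and 5.91 in IG27. Its fall of -0.38 ± 0.10 (adjusted p = 0.0134, limma) became -0.26 with the slide row as a block (adjusted p = 0.149, limma) and -0.26 with another background correction (adjusted p = 0.0522, limma). Psmb1 measured 5.30, 5.01 and 5.33 in WT and 5.18, 5.09 and 5.19 in IG27. Psmb3 measured 6.0, 5.89 and 6.01 in WT and 6.07, 5.82 and 5.95 in IG27. For both, the IG27 values fell within or around the WT range. Psmb11, the thymus form, was not well above background on any full array, at -8.22 to -7.36.

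The ATPases of the regulatory particle form the ring that unfolds the substrate, and they spanned the range from the largest rise to nearly the largest fall. Of 6, 1 was higher, 3 were lower and 2 did not pass, with a median of -0.20. Psmc2 measured 5.08, 4.95 and 5.03 in WT and 5.74, 5.47 and 5.49 in IG27. It rose by 0.55 ± 0.09 (adjusted p = 0.00159, limma), a 1.46-fold difference, with IG27 replicate 1 the highest array. Psmc3 measured 6.75, 6.80 and 6.85 in WT and 5.88, 5.75 and 5.78 in IG27. Its fall of -1.0 ± 0.06 (adjusted p = 1.56e-05, limma) was repeated by the other 2 probes, the largest at -1.2. Psmc6 measured 5.26, 5.28 and 5.34 in WT and 4.76, 4.65 and 4.64 in IG27, and Psmc1 measured 6.27, 6.21 and 6.23 in WT and 6.02, 5.97 and 5.94 in IG27. Both fell without overlap, Psmc6 by -0.61 ± 0.05 (adjusted p = 0.000108, limma) and Psmc1 by -0.26 ± 0.05 (adjusted p = 0.00316, limma). Within 1 ring of subunits used in equal numbers, 3 transcripts were thus lower by unequal amounts and 1 was higher.

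For 3 genes of the regulatory particle, WT replicate 1 lay at least 0.3 below both other WT arrays. Psmc4 measured 3.69 there against 4.55 and 4.62 in the other WT arrays, and 4.81, 4.8 and 4.81 in IG27. With all arrays it differed by 0.53 ± 0.25 (adjusted p = 0.102, limma), and without WT replicate 1 by 0.23 (adjusted p = 0.0154, limma). Its second, dim probe did not show the low value, at -0.17 in WT replicate 1 against -0.39 and -0.24. Psmd12 measured 4.22 in WT replicate 1 against 5.09 and 5.13, and 5.13, 5.02 and 4.98 in IG27. Psmc5 measured 4.23 in WT replicate 1 against 4.59 and 4.68, and 4.38, 4.28 and 4.42 in IG27. The difference of Psmd12 went from 0.23 to -0.07 without that array and passed neither way, and that of Psmc5 from -0.14 (adjusted p = 0.347, limma) to -0.27 (adjusted p = 0.0187, limma). Over all genes, 4.53% lay at least 0.3 below both other WT arrays in WT replicate 1, and 1.31% to 4.32% did so in the other 5 arrays.

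**Figure D3:**
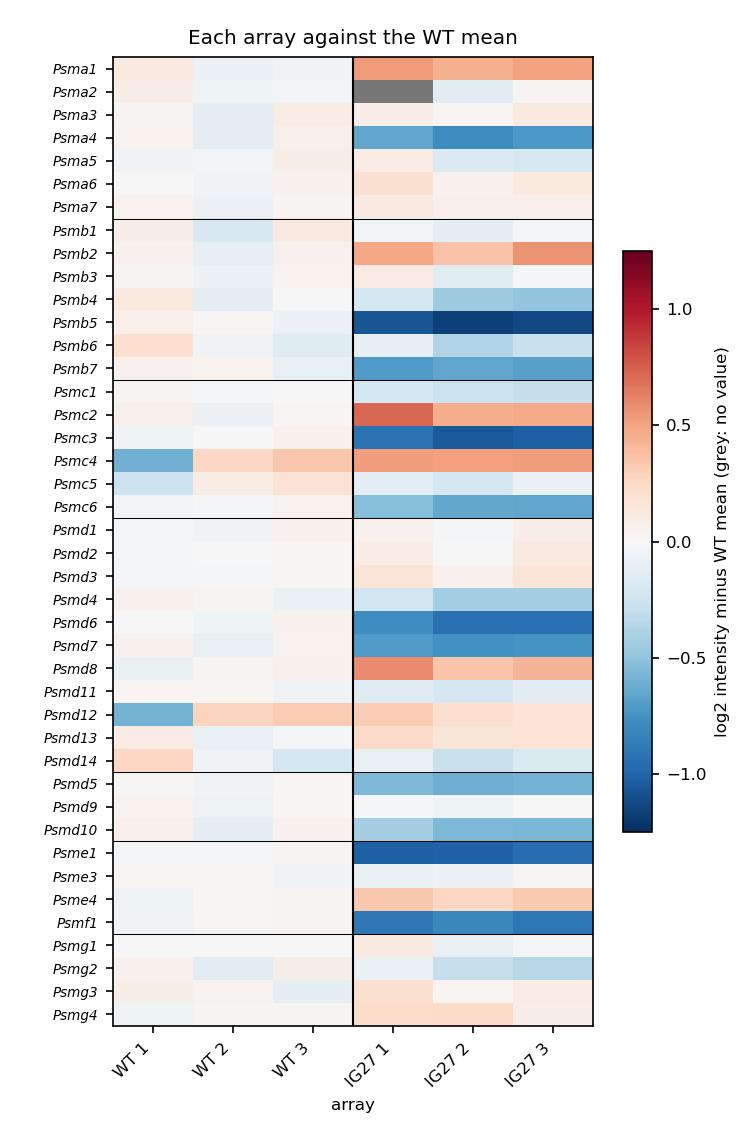
Log2 intensity of each tested proteasome gene in each of the 6 arrays (columns) minus its mean in WT; rows are ordered by class, blue is lower and red is higher than the WT mean, and the dark grey cell is the spot of Psma2 that was left out. The low Psmc4 and Psmd12 values of WT replicate 1 stand out on the left, and most of the dark blue rows on the right are alike in the 3 IG27 arrays, while Psmb4 and Psmd4 are paler in IG27 replicate 1.

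Among the non-ATPase subunits, which bind, trim and position the ubiquitin chain, 1 of 11 was higher, 4 were lower and 6 did not pass, with a median of 0.04. Psmd8 measured 3.54, 3.65 and 3.67 in WT and 4.21, 3.97 and 4.04 in IG27. It rose by 0.45 ± 0.08 (adjusted p = 0.00208, limma), without overlap. Psmd6 measured 5.09, 5.04 and 5.14 in WT and 4.31, 4.16 and 4.16 in IG27. Its fall of -0.88 ± 0.06 (adjusted p = 3.73e-05, limma) was the largest of the class and was seen by its 3 probes, from -0.95 to -0.88. Psmd7 measured 4.10, 3.96 and 4.09 in WT and 3.34, 3.29 and 3.31 in IG27, a fall of -0.74 ± 0.06 (adjusted p = 5.74e-05, limma). Its protein is the partner of Psmd14, the enzyme that takes the ubiquitin chain off the substrate. Psmd14 measured 4.56, 4.25 and 4.08 in WT and 4.20, 4.02 and 4.12 in IG27, with the WT arrays themselves widely spread. Its difference of -0.19 ± 0.13 did not pass (adjusted p = 0.241, limma), while its second probe fell by 0.32 and did.

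Psmd4, a ubiquitin receptor, measured 5.84, 5.82 and 5.71 in WT and 5.55, 5.37 and 5.36 in IG27, a fall of -0.37 ± 0.07 (adjusted p = 0.00446, limma). Psmd11, a scaffold subunit of the lid, measured 2.57, 2.57 and 2.51 in WT and 2.39, 2.33 and 2.41 in IG27, a fall of -0.17 ± 0.05 (adjusted p = 0.0176, limma). The fall of Psmd11 was the less firm: it did not pass in 6 of the 18 alternative settings, among them quantile normalization (-0.04, adjusted p = 0.485, limma), the replicate number as a block (adjusted p = 0.0515, limma), and the fits without WT replicate 1 (-0.16, adjusted p = 0.0579, limma) and without IG27 replicate 2 (-0.15, adjusted p = 0.0619, limma). The large base subunits Psmd1 and Psmd2, which bind shuttle proteins, and the lid subunits Psmd3 and Psmd13 had values slightly above WT. Psmd1 measured 5.34, 5.31 and 5.41 in WT and 5.41, 5.34 and 5.43 in IG27, and Psmd2 measured 5.44, 5.45 and 5.48 in WT and 5.55, 5.46 and 5.57 in IG27. Psmd3 measured 5.81, 5.81 and 5.85 in WT and 5.98, 5.88 and 5.98 in IG27. Psmd13 measured 5.59, 5.39 and 5.47 in WT and 5.72, 5.63 and 5.65 in IG27. For Psmd3 and Psmd13 the groups did not overlap, yet neither 0.12 ± 0.05 (adjusted p = 0.0738, limma) nor 0.18 ± 0.07 (adjusted p = 0.0514, limma) passed. Psmd13 lay at the threshold, and it passed in 11 of the 18 alternative settings, among them without WT replicate 1 (0.24, adjusted p = 0.0209, limma).

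By particle, the core particle had 2 higher and 4 lower genes of 14 with a median of -0.05 (42.9% passed). The regulatory particle had 2 higher and 7 lower of 17 with a median of -0.14 (52.9% passed). Of all tested genes 70.5% passed, 30.5% higher and 40.0% lower, with a median of -0.07. The number of higher genes in the regulatory particle was 4 without WT replicate 1, with a median of -0.07. The difference between the particles was not tested, and under the alternative settings their medians ran from -0.28 to 0.05 for the core and from -0.38 to -0.01 for the regulatory particle.

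The activators that can replace the regulatory particle moved in opposite directions. Psme1, a subunit of the interferon-inducible cap PA28, measured 5.25, 5.24 and 5.29 in WT and 4.24, 4.25 and 4.31 in IG27. It fell by 0.99 on the log2 scale (SE 0.05, adjusted p = 6.48e-06, limma), 1.99-fold, with the arrays of each group within 0.07 of each other. Psme4, which encodes the cap PA200, measured 4.01, 4.10 and 4.11 in WT and 4.41, 4.33 and 4.40 in IG27. It rose by 0.31 ± 0.05 (adjusted p = 0.00225, limma), and its second probe by 0.44, although with median scaling the rise was 0.07 (adjusted p = 0.417, limma). Psme3, the nuclear cap, measured 2.20, 2.19 and 2.13 in WT and 2.08, 2.10 and 2.19 in IG27, and its difference of -0.05 ± 0.05 did not pass (adjusted p = 0.418, limma). Psmf1, an inhibitor of the core, measured 1.48, 1.53 and 1.55 in WT and 0.63, 0.71 and 0.62 in IG27. Its fall of -0.87 ± 0.05 (adjusted p = 1.47e-05, limma) was larger than that of its second probe, -0.38, and both passed.

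Among the assembly chaperones, 1 of 7 was higher and 2 were lower. Psmd5 and Psmd10 hold parts of the ATPase ring during assembly of the regulatory particle. Psmd5 measured 3.00, 2.94 and 3.01 in WT and 2.42, 2.37 and 2.39 in IG27, a fall of -0.59 ± 0.05 (adjusted p = 5.54e-05, limma). Psmd10 measured 3.40, 3.21 and 3.39 in WT and 2.92, 2.77 and 2.76 in IG27, a fall of -0.52 ± 0.08 (adjusted p = 0.00116, limma). Psmd9, the remaining chaperone of that ring among the members, measured 2.31, 2.20 and 2.29 in WT and 2.24, 2.21 and 2.26 in IG27. Its groups overlapped, and its difference of -0.03 ± 0.05 did not pass (adjusted p = 0.624, limma).

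The chaperones of the core particle showed small differences. Psmg1 measured 4.15, 4.14 and 4.14 in WT and 4.26, 4.05 and 4.12 in IG27, with a mean of 4.14 in both groups. Psmg2 measured 2.79, 2.60 and 2.81 in WT and 2.65, 2.45 and 2.39 in IG27. Psmg3 measured 2.46, 2.43 and 2.27 in WT and 2.59, 2.41 and 2.48 in IG27. None of these passed, and the nearest was Psmg2 at -0.24 ± 0.09 (adjusted p = 0.0607, limma), which passed without WT replicate 2 (-0.31, adjusted p = 0.032, limma) or without IG27 replicate 1 (-0.32, adjusted p = 0.0235, limma). Psmg4 measured 2.98, 3.08 and 3.08 in WT and 3.28, 3.29 and 3.13 in IG27. Its rise of 0.19 ± 0.06 (adjusted p = 0.0398, limma) was not stable: it did not pass without WT replicates 1 (0.15), 2 (0.20) or 3 (0.21) or without IG27 replicates 1 (0.17) or 2 (0.16), and its sign turned with median scaling (-0.05).

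**Figure D4:**
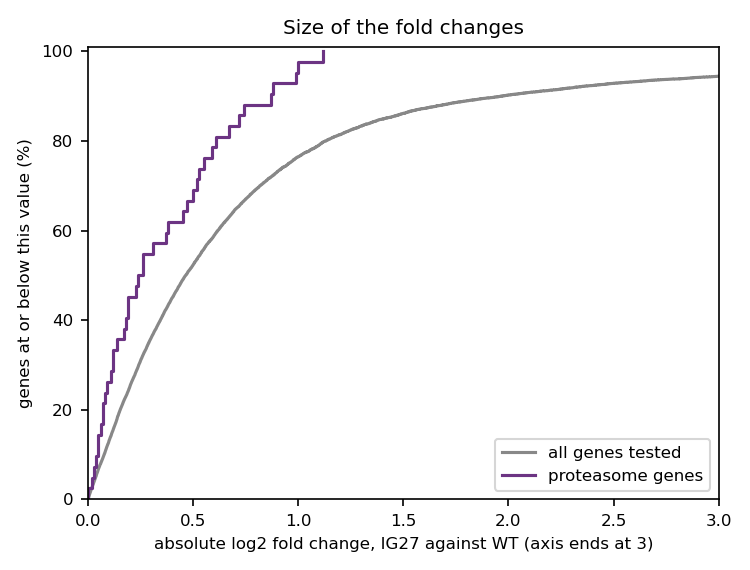
Cumulative share of genes (y axis, %) by absolute log2 fold change (x axis) for the 42 tested proteasome genes and for all 14898 tested genes. The proteasome curve lies above that of all genes because its fold changes were smaller, with a median of 0.25 against 0.47; it ends at 1.12, and the x axis leaves out the largest values of all genes.

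Where a member had several probes, they mostly had the same sign. Of 18 members with more than 1 probe, 16 had all probes on the same side of 0, 12 had the same result of the test at every probe, and in none did probes pass in opposite directions. The other 24 rest on 1 probe each, Psmb5, Psme1, Psmc2 and Psma1 among them.

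The inducible subunits, which replace the constitutive catalytic ones in the immunoproteasome, did not follow each other. Psmb9, the counterpart of Psmb6, measured 2.56, 2.45 and 2.53 in WT and 3.76, 3.60 and 3.65 in IG27. It rose by 1.16 ± 0.06 (adjusted p = 1.13e-05, limma), 2.23-fold. Psmb8, the counterpart of Psmb5, measured 3.51, 3.53 and 3.52 in WT and 3.77, 3.73 and 3.69 in IG27, a rise of 0.21 ± 0.04 (adjusted p = 0.00581, limma). Psmb10, the counterpart of Psmb7, measured 4.84, 4.98 and 5.01 in WT and 4.51, 4.30 and 4.36 in IG27, a fall of -0.55 ± 0.08 (adjusted p = 0.000934, limma). The pairs therefore differed in pattern under the main scaling: Psmb5 fell while Psmb8 rose, and Psmb7 and Psmb10 both fell. Scaling to each array's median shifted the median of all genes by -0.24, which is larger in size than the rise of Psmb8.

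Of 46 other genes of the ubiquitin and proteasome pathway, listed by role, 45 were tested, and 17 were higher and 16 lower, with a median of -0.03. That is 73.3%, near the 70.5% of all genes, and with median scaling the split was 7 higher and 24 lower. Among 16 further proteasome-bound and assembly factors, 6 were higher and 5 lower. The largest difference was in Ubqln4, a shuttle protein for ubiquitinated substrates, with 0.33, 0.34 and 0.46 in WT and -0.78, -0.42 and -0.19 in IG27 (-0.84 ± 0.15, adjusted p = 0.00265, limma). Pomp, the chaperone that joins the beta subunits to the core, measured 6.42, 6.20 and 6.33 in WT and 6.26, 5.99 and 5.98 in IG27 and did not pass (-0.24 ± 0.10, adjusted p = 0.0692, limma). Among 6 ubiquitin genes and E1 enzymes, none was higher and 3 were lower, with Uba1, the main enzyme that activates ubiquitin, at 6.53, 6.66 and 6.42 in WT and 5.74, 5.63 and 5.80 in IG27 (-0.82 ± 0.08, adjusted p = 0.000167, limma). Among 9 genes of VCP and its cofactors, which pull ubiquitinated proteins out of complexes and membranes, 3 were higher and 4 lower. Ubxn4 had the largest difference there, with 3.64, 3.38 and 3.50 in WT and 2.90, 2.99 and 3.05 in IG27 (-0.53 ± 0.08, adjusted p = 0.00138, limma).

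The transcription factors that act on proteasome genes, with their processing enzymes and partners, had 6 higher and 3 lower genes among 11 (81.8%, against 70.5% of all genes). Nfe2l1 measured 3.12, 3.15 and 3.18 in WT and 3.46, 3.38 and 3.33 in IG27, a rise of 0.24 ± 0.05 (adjusted p = 0.00755, limma). Nfe2l2, the oxidative stress factor that reads the same element, measured 4.19, 4.14 and 4.30 in WT and 2.93, 2.97 and 2.86 in IG27. It fell by 1.29 on the log2 scale (SE 0.06, adjusted p = 7.17e-06, limma), 2.44-fold. Nfe2l3 measured -3.33, -3.40 and -3.16 in WT and -3.15, -3.08 and -2.51 in IG27 and did not pass (0.38 ± 0.18, adjusted p = 0.104, limma). Maff, a small partner protein of these factors, had the largest difference of the list, with -0.62, -0.56 and -0.47 in WT and 1.26, 1.40 and 1.37 in IG27 (1.89 ± 0.06, adjusted p = 1.65e-06, limma). Ngly1, the glycanase that processes the Nfe2l1 protein, fell by 1.53 on the log2 scale (SE 0.05, adjusted p = 1.99e-06, limma), from 1.77, 1.67 and 1.82 in WT to 0.22, 0.21 and 0.22 in IG27. Of these named genes, Nfe2l1 and Maff were higher and Nfe2l2 and Ngly1 lower. The rise of Nfe2l1 is about the size of the shift of -0.24 that median scaling gave the median of all genes.

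Promoters of 37 of the 45 members were in the RefSeq table, 40 promoters in all, each covering 250 bases before and 50 after the start. On either strand, TGACNNNGC was in 6 of them (15%, against 12.4% of all 32851 promoters) and CCAAT in 13 (32.5% against 37.4%). GCGCANGCG, the core read by nuclear respiratory factor 1, was in 7 (17.5% against 6.25%), and GGGCGG, the GC box, was in 23 (57.5% against 35.7%). These shares are descriptions with no test. Of the promoters of members that passed, TGACNNNGC was in 1 of 6 for the higher genes and in 2 of 12 for the lower ones. The element that Psmb5 carried was thus also present at Psme4, which rose, and at Psmc6, which fell.

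Of the 42 members, 30 lay on chromosomes whose tested genes had a median fold change of -0.01 or lower after rounding. These held all 15 lower members, 2 higher ones (Psme4 and Psmg4) and 13 that did not pass. Chromosomes chosen by such a median hold many lower genes by that choice. Of their tested genes, 33.3% (chromosome 1) to 74.3% (chromosome 8) were lower, against 14.3% (chromosome 4) to 37.6% (chromosome 18) on the others. Psmb5, Psmc6, Psmd6 and Psme1 are the 4 tested members on chromosome 14, and all 4 were lower. Their median was -0.94, against -0.28 for the 508 tested genes of that chromosome (0.04 when dim probes were kept). Of these 508 genes, about as many were lower as were not, and 24.8% were higher. On chromosome 2, 4 of 6 members were lower (Psmc3, Psmf1, Psmb7 and Psmd5) and none higher, beside 58.0% of its tested genes lower. The member median there was -0.63 against -0.34 for the chromosome (-0.06 when dim probes were kept). Whether members differ from the other genes of these chromosomes was not tested. The single members on chromosomes 8 (Psmd7), 9 (Psma4) and X (Psmd10) were lower, as were 74.3%, 71.1% and 63.4% of all tested genes there. Chromosome 7, where 40.8% of genes were higher, held 2 of the 6 higher members, Psma1 and Psmd8. Chromosome 4, where 58.4% of genes were higher, held Psmb2. Chromosome 11, which has 8 members, the largest number, had 1 higher and 1 lower, with a member median of -0.03. Of its tested genes, 21.0% were higher and 41.4% lower.

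The 10 tested genes on each side of a member were also compared with it, by their median fold change. The neighbours of Psmb5 had a median of -1.21, with 16 of 20 lower, and those of Psme1 a median of -1.09. For Psma4, Psmd7, Psmc3 and Psmc6 the neighbour medians were -0.68, -0.71, -0.68 and -0.58. Of the 15 lower members 14 had a negative neighbour median. Members that did not pass had medians of either sign, such as -0.51 for Psma5, -0.32 for Psmb3 and 0.36 for Psmb1. How common a negative median is over all tested genes was not counted, so the 14 cannot be set against the array. After rounding, 3 of the 6 higher members had a positive neighbour median. That of Psmd8 was 0.0, and those of Psme4 and Psmg4 were -0.04 and -0.07. Over the 42 members, Pearson's r between the fold change and the neighbour median was 0.78 and Spearman's rho 0.74, against 0.28 and 0.43 over 14893 genes of the array. The 2 sets are unlike: fold changes of all tested genes ran from -10.62 to 11.54, those of the members from -1.12 to 0.55. Other members were left out of a member's neighbours, a step not taken for all genes. This comparison was added after the values were seen, neighbours of nearby members overlap, and all points share the same 6 arrays, so the correlations are descriptions without a test. The members farthest from their neighbours were Psmc4, at 0.53 beside -0.23, Psmf1, at -0.87 beside -0.23, and Psmd6, at -0.88 beside -0.38. The place of Psmc4 rests on the low WT replicate 1, without which its fold change was 0.23. Whether a member's fold change depends on its region was not tested.

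**Figure D5:**
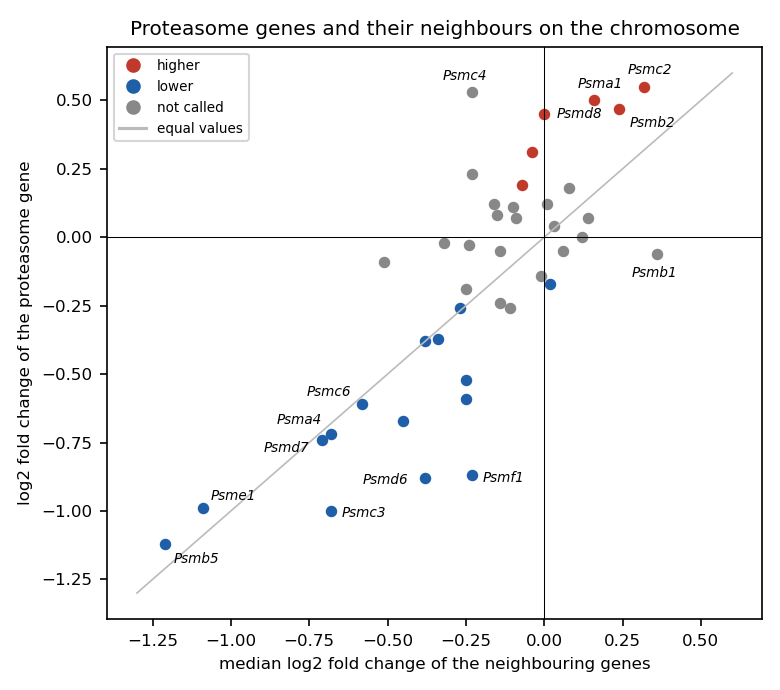
Log2 fold change of each tested proteasome gene (y axis) against the median log2 fold change of the 10 tested genes on each side of it (x axis); colour gives the result of the test and the grey line marks equal values. Psmb5 and Psme1 lie at the lower left together with their neighbours, while Psmc4, Psmf1 and Psmd6 lie farthest from the line; the Psmc4 value of 0.53 is 0.23 without WT replicate 1.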

How the data were processed

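Total RNA of 3 WT and 3 IG27 dishes was labelled with Cy3 and hybridised by the authors to 1-colour Agilent mouse arrays, all on 1 slide, with WT replicates 1 and 3 in row 1 and the other arrays in row 2. The kits named in the labels and in the study's methods differ. Feature Extraction version 9.1 is named in the submitters' processing notes, and 10.7.3.1 per the file headers, whose design build is mm9. The deposited intensity is the processed signal, corrected for background by the authors. The scanner output of IG27 replicate 2 stops after 285 spots, so its values were taken from the deposited table of intensities, which equalled the scanner values for 255 of 255 probes. That table has WT replicates 2 and 3 exchanged relative to the scanner files (56305 of 56305 probes equal, relative tolerance 0.0001). The labels of the scanner files were followed, which leaves the group comparison as it is.

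Values were log2 of the intensity minus the 75th percentile of each array over non-control probes. Outlier spots were left out. A probe entered if it was well above background on every full array of at least 1 group, and a gene was read by its brightest probe. Of 56605 probes, 32994 were named by RefSeq accession (22911 genes). Chromosomes and gene order are those of GRCm38.p6. Groups were compared with limma 3.58.1 in R 4.3.3 (lmFit, eBayes, Benjamini-Hochberg adjustment over 14898 genes, threshold 0.05), which was tested on simulated data. The simulation used independent noise, few changed genes and no scaling step, so it does not bear on the scaling of these arrays. Alternatives were other scalings, background correction, probe filters and summaries, the authors' value table, an unadjusted threshold, blocks by slide row or replicate number, and leaving out each array. The number of arrays limits the precision, and p-values measure the spread between dishes.

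Each array value was printed for the members with the largest rise and fall in a class, those that did not pass, and others where the text turns on them. Members, gene lists and alternatives were chosen with earlier results of these data known. The same replicate number did not mark a shared sample: deviations of same-numbered arrays correlated at 0.012, 0.04 and 0.076.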

Additional observations from a re-analysis of the deposited data

How the results depend on the processing

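Scaling moved the counts most. With quantile normalization 14 members were higher (4 in the core, 6 in the regulatory particle). The medians were 0.05, 0.05 and -0.02 for members, core and regulatory particle. Psmg1 changed sign to 0.14 and passed there. With median scaling 3026 genes, 3 members, 1 core gene and 7 other pathway genes were higher, and 25 members and 8 core genes were lower. The medians were -0.30, -0.28 and -0.38, and Psmg4, which passed under the main scaling, changed sign to -0.05. Members that passed under neither scaling also changed sign, such as Psma2 (0.06 with quantile normalization) and Psma3 (-0.17 with median scaling). The other background correction, on 5 arrays, gave medians of 0.00 for the core and -0.01 for the regulatory particle. The mean of a gene's probes made 10 members higher, 5 of them in the regulatory particle. With the slide row as a block, which sets IG27 against WT replicate 2 alone, the core median was 0.03 and 19 members passed. Leaving out 1 array gave 2 to 4 higher regulatory genes, core medians of -0.09 to 0.00 and regulatory medians of -0.17 to -0.05. Chromosome medians were -0.31, -0.60, -0.60 and -0.54 for 2, 8, 9 and X with quantile normalization, and -0.06, -0.47, -0.27, 0.04 and -0.07 for 2, 8, 9, 14 and X without the filter on dim probes. With the replicate number as a block, 21 members passed and 10309 genes, against 21 and 10501. Whether equal numbers mark paired dishes is not known. The causes were not tested.

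The 3 arrays per group come from dishes of 1 line each. Members read by 1 probe have no check within the array. What passed depended on the spread of a gene as well as on the size of its difference. Psmd11 passed at -0.17, while Psmb6 at -0.26 and Psmc4 at 0.53 did not.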
